A study of Mus musculus with 6 samples.

Results

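The genes of fibroblast growth factor (FGF), bone morphogenetic protein (BMP), transforming growth factor beta (TGF-beta) and activin signalling were examined in the hippocampus (HIPP) of mice given methamphetamine (MA). Members were chosen by gene symbol and not by their values, from ligands named Fgf, Bmp, Tgfb and Gdf with a number, the inhibin subunits, the FGF, BMP, activin and TGF-beta receptors, the Smads and the latent TGF-beta binding proteins. The rule gave 66 of the 16060 rows of the table, with 65 symbols because Ltbp4 stands on 2 rows. Of these, 53 reached 0.5 on the back-transformed scale in 3 or more of the 6 libraries and were tested, and 13 did not. The RNA-seq libraries came from 3 control mice and 3 MA mice, 1 for each animal. All were adult male C57BL/6 mice without a genetic change named in the labels. Control mice received saline intraperitoneally, and MA mice received doses that rose from 5 mg/kg in week 1 to 10 mg/kg in week 2 and 15 mg/kg in week 3. Behavior was tested on day 22, and tissue was taken straight afterwards, so the values also follow the behavioral tests in both groups.

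Ligands of the TGF-beta superfamily, which include BMPs, growth and differentiation factors (GDFs) and activins, bind pairs of type I and type II receptor kinases. The activated type I receptor phosphorylates receptor Smads, which join Smad4 and enter the nucleus, while Smad6 and Smad7 act as inhibitors. TGF-beta is secreted in a latent form held by latent TGF-beta binding proteins. FGFs bind receptor tyrosine kinases that act largely through the MAP kinase cascade, and a subgroup of FGFs stays inside the cell and binds sodium channels. In the brain these pathways are known for roles in neurogenesis, in glia and at blood vessels.

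The deposited values are on a log2 scale of an expression measure per gene length, and a difference is the mean of the MA libraries minus the mean of the Control libraries on that scale. Levels compared between genes are the back-transformed values. No read totals stand in the table, and library depth is unknown. The library labelled MA replicate 3 stood apart: its mean Pearson correlation with the other MA libraries across tested genes was 0.978, against 0.984 and 0.985 for MA replicates 1 and 2 and 0.991 to 0.993 for the Control libraries. It also listed no gene at 0, where the other libraries listed 259 to 437. Markers of other tissues differed between the groups. The summed level of 8 choroid plexus markers was 67.1 to 422 in the Control libraries and 1779 to 5085 in the MA libraries, and 3 erythrocyte markers gave 890 to 1125 against 1816 to 2315. For 6 fibroblast and meningeal markers it was 37.9 to 45.9 against 80.4 to 105, whereas 4 neuronal markers gave 1466 to 1608 against 1208 to 1648. Hippocampal markers were present in every library, with sums of 61.1 to 84.2 for 4 markers of dentate granule cells and 104 to 131 for 4 of CA1. No marker was at 0 in all libraries. In whole tissue, fewer cells of a type and less RNA per cell cannot be told apart.

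No member passed an adjusted p of 0.05 in limma with Benjamini-Hochberg adjustment, that is 0 of 53, where 35 of all 13321 tested genes (0.263%) did. At an unadjusted p under 0.05, 8 members (15.1%) passed, beside 10.4% of all tested genes. Of these 8, Fgfr3, Ltbp3, Tgfbr2, Bmp6 and Bmp7 were higher in the MA libraries and Fgf9, Fgf5 and Fgfr1 were lower. The groups did not overlap for 10 members (18.9%), 5 in each direction, beside 17.5% of all tested genes. These were Fgfr3, Ltbp3, Tgfbr2, Tgfbr3 and Bmp7, higher, and Fgf9, Fgf5, Fgfr1, Inhba and Smad5, lower. Nothing about the members as a group is read from either share. The exact two-sided permutation test cannot go below p = 0.1 with 3 libraries in each group. Across the members, 26 were higher and 27 lower, and the median difference was -0.00027, against -0.01 over all tested genes. The differences ran from -0.52 for Gdf1 to 0.62 for Fgfr3.

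**Figure D1:**
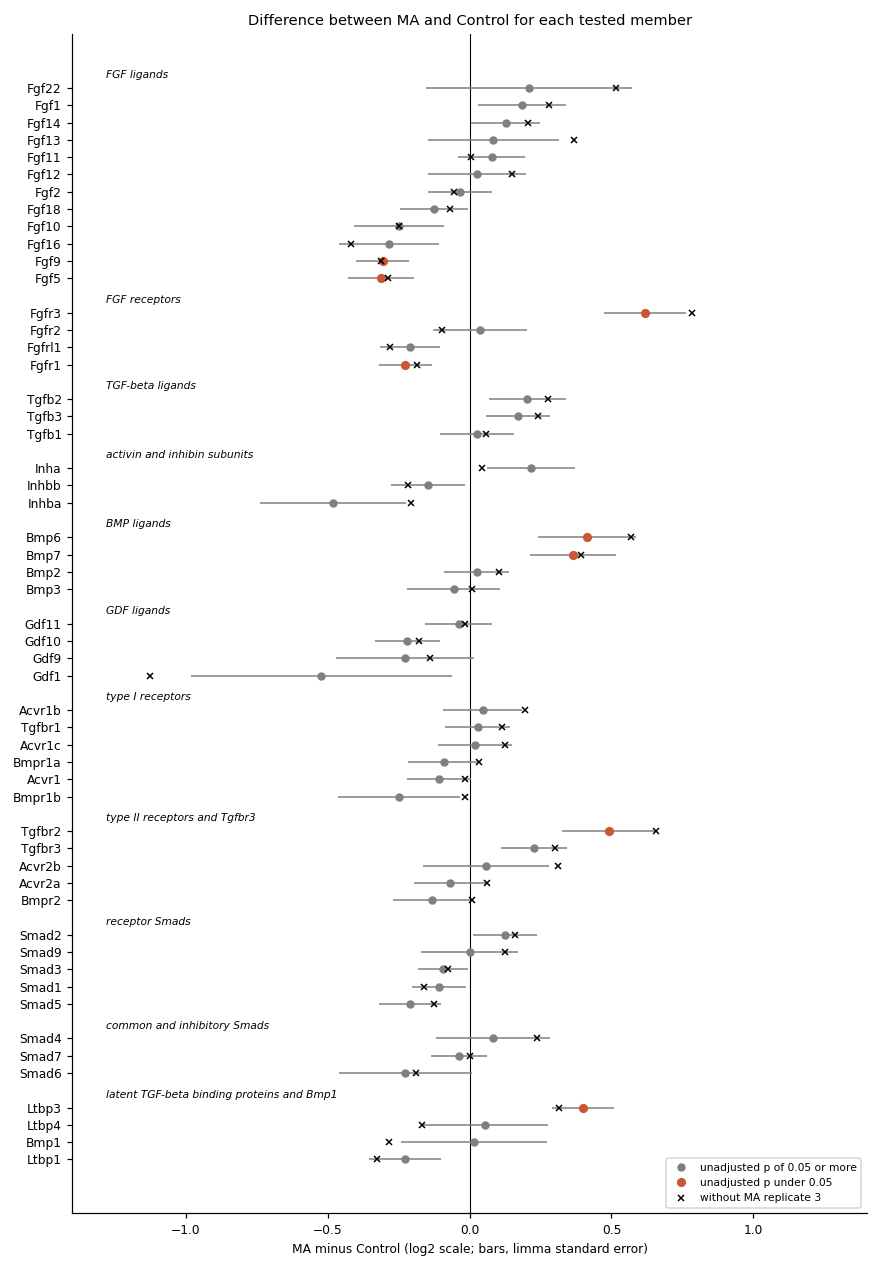
Difference between MA and Control (x axis, log2 scale, limma estimate with its standard error) for the 53 tested members (y axis, ordered by role). The values spread on both sides of 0, from -0.52 for Gdf1 to 0.62 for Fgfr3, and no member passed the adjusted threshold.

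Other fits called a few members. The sample quality weights of limma were 0.937, 2.45 and 0.194 for MA replicates 1, 2 and 3 and 1.04 to 1.82 for the Control libraries. The weighted fit thus leaned most on MA replicate 2. With these weights, 4 members (7.55%) passed an adjusted p of 0.05, beside 4.4% of all tested genes: Fgfr3 and Tgfbr2 higher, Fgf9 and Gdf1 lower. Without MA replicate 3, 2 members (3.77%) passed, Fgfr3 higher and Gdf1 lower, beside 1.93% of all tested genes.

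Promoter sequences are shown for Fgfr3, Tgfbr2 and Fgf9, the members called with the weights other than Gdf1, whose reads are uncertain. They are RefSeq windows on GRCm38.p6 from 250 bases before to 50 bases after a transcript start, printed 5' to 3' on the gene's strand. Capitals mark matches, on either strand, to TGACG (core of the CREB site), TGANTCA (the AP-1 site), CAGAC (a Smad element), GGCGCC (a GC-rich BMP-Smad element) or TATAAA (the TATA box). The Fgfr3 window, 1 of 2 for the gene, lies at chr5:33721474-33721773 on the plus strand, that of Tgfbr2 at chr9:116175314-116175613 on the minus strand and that of Fgf9 at chr14:58072436-58072735 on the plus strand.
Fgfr3: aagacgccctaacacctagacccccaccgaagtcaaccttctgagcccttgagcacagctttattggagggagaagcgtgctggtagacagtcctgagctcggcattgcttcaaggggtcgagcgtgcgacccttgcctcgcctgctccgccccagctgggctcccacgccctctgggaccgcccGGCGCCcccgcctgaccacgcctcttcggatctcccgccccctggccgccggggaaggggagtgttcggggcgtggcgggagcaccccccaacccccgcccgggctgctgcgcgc
Tgfbr2: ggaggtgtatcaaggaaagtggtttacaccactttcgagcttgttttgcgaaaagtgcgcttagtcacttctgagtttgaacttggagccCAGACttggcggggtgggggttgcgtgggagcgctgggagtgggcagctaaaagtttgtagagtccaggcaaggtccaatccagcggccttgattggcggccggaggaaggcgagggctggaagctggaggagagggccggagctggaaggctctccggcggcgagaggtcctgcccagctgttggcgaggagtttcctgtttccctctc
Fgf9: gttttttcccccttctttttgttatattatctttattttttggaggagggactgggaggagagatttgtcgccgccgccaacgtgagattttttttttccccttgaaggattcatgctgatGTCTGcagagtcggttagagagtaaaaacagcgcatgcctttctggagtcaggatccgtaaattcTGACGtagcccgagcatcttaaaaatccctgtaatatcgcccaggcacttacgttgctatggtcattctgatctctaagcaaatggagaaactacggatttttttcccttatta
The Fgfr3 window has a GC content of 69.7% and 26 CG steps, with 1 GGCGCC. The Tgfbr2 window has a GC content of 59% and 15 CG steps, with 1 CAGAC. The Fgf9 window is poorer in GC at 42.7%, with 12 CG steps, 1 TGACG and 1 CAGAC read on the other strand. A match is a description of the letters and not a binding site. Of the 53 tested members, 40 had a window, 57 windows in all. GGCGCC stood in 29.8% of these, against 11.9% of all 32851 windows, and CAGAC in 42.1% against 49.6%. The shares were 17.5% against 20.8% for TGACG, 5.26% against 7.81% for TGANTCA and 10.5% against 13.6% for TATAAA. Each window of a gene was counted separately, and these sets of windows were not matched for GC content or expression. No enrichment of a site is read from these shares.

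**Figure D2:**
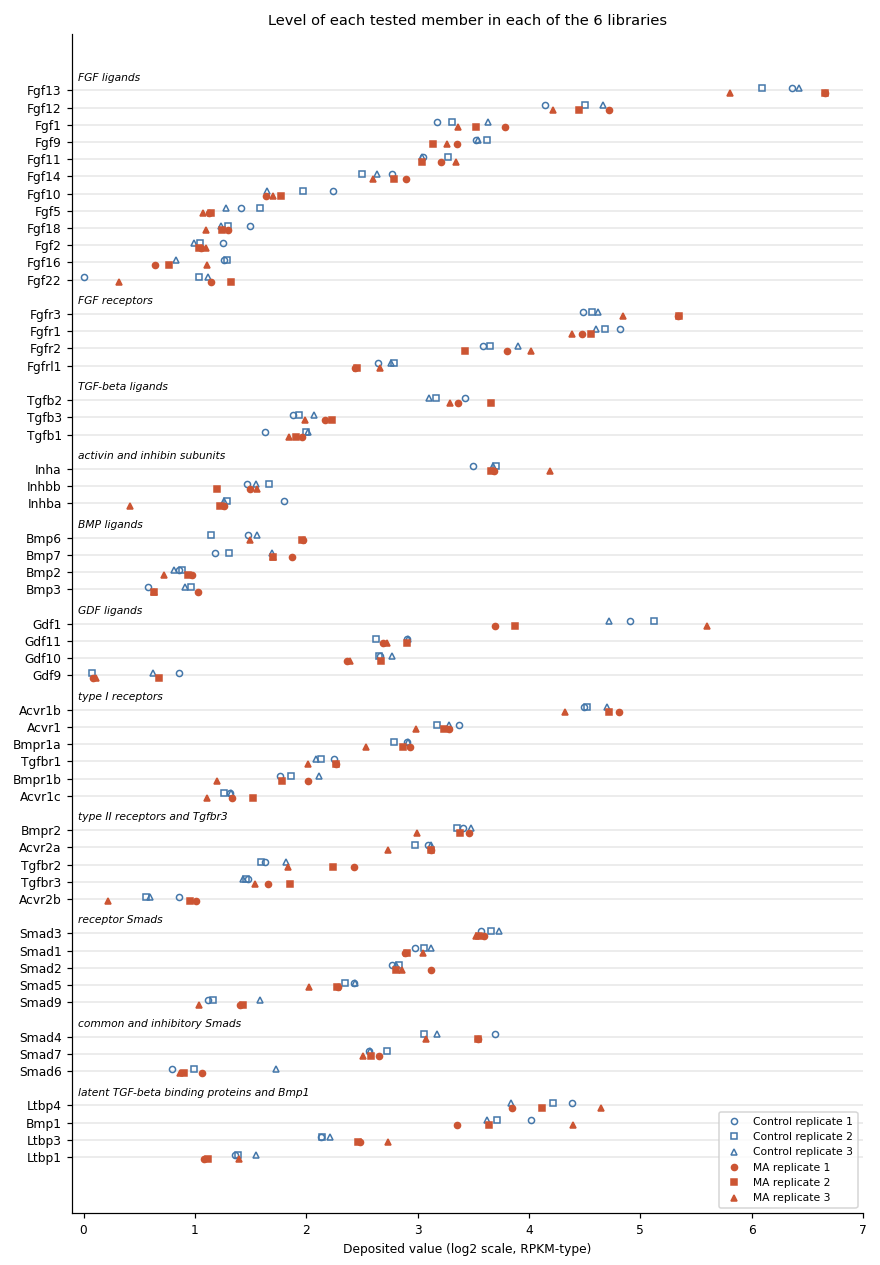
Deposited value (x axis, log2 scale) of each tested member (y axis, grouped by role) in the 3 Control and 3 MA libraries, 1 symbol per library. Fgf13 lies highest, and for most members the symbols of the groups are mixed.

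Among the FGF ligands, 12 of 16 were tested, with 6 higher and 6 lower. Fgf13, an intracellular FGF that binds sodium channels and microtubules, had the highest mean level of all members at 81.5 on the back-transformed scale. Its log2 values were 6.36, 6.09 and 6.43 in Control and 6.66, 6.66 and 5.81 in MA, so that MA held both the highest and the lowest libraries. The difference was 0.08 (SE 0.23, limma adjusted p = 0.938), with a 95% interval from -0.46 to 0.63. Fgf12, of the same intracellular group, had a mean level of 20.9 in Control and 21.3 in MA, and Fgf14 5.24 and 5.81.

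Fgf9, a secreted ligand made by neurons and glia, had log2 values of 3.52, 3.62 and 3.54 in Control and 3.36, 3.14 and 3.27 in MA. All MA libraries lay below all Control libraries. The difference was -0.31 (SE 0.09, unadjusted p = 0.0132, limma adjusted p = 0.339). It was -0.37 with the weights, which were largest for MA replicate 2, the lowest library for Fgf9. Without MA replicate 3 it was -0.31. The limma adjusted p was 0.0497 with the weights and 0.123 without MA replicate 3, within a range of 0.0497 to 0.796 over all alternatives. The gene lies at chr14:58070547-58112720 on GRCm38.

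Fgf5, a secreted ligand known as a regulator of the hair cycle, had log2 values of 1.42, 1.59 and 1.28 in Control and 1.13, 1.15 and 1.07 in MA. Again the groups did not overlap, at a low level. The difference was -0.31 (SE 0.12, unadjusted p = 0.0304, limma adjusted p = 0.423).

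The other tested FGFs overlapped between the groups. Fgf1, a ligand of all FGF receptors, had a mean level of 9.46 in Control and 10.9 in MA, and Fgf10, a ligand of the FGF7 subfamily, 2.93 and 2.26. Fgf2, a mitogen of neural progenitors, was at 1.15 and 1.09, and its exons overlap those of Nudt6 on the opposite strand. Fgf22, a presynaptic organizer, varied most, with log2 values of 0, 1.04 and 1.12 in Control and 1.14, 1.33 and 0.31 in MA.

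Of the FGF receptors, 4 of 5 were tested, and Fgfr4 was below the filter. Fgfr3, a receptor tyrosine kinase known in astrocytes, had log2 values of 4.48, 4.57 and 4.62 in Control and 5.34, 5.35 and 4.84 in MA. MA replicates 1 and 2 lay close together and well above Control, and MA replicate 3 lay between them and Control. The difference was 0.62 (SE 0.14, unadjusted p = 0.00327, limma adjusted p = 0.219), with a 95% interval from 0.28 to 0.96. The mean back-transformed level was 22.6 in Control and 35.6 in MA, a ratio of 1.58. Without MA replicate 3 the difference was 0.78 with a limma adjusted p of 0.0172, and with the weights the adjusted p was 0.00712, the lowest over all alternatives, the highest being 0.676. The gene lies at chr5:33721674-33737068 on GRCm38. Of its 7158 exonic bases, 998 lie in exons of G630022F23Rik on the opposite strand, and no source says whether reads were counted by strand.

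Marker values were set beside Fgfr3. The summed level of 4 astrocyte markers was 253 to 265 in Control and 207 to 283 in MA, and none of the 4 was higher on average in MA. The summed level of 5 thalamic markers was 16.5 to 24.4 in Control and 44.1, 53.4 and 18.1 in MA replicates 1, 2 and 3. MA replicate 3 was the lowest MA library for Fgfr3 and for the sums of thalamus, astrocytes, neurons, oligodendrocyte precursors, microglia, endothelium, mural cells and CA2. That rank alone is not particular to thalamus. MA replicates 1 and 2 were both above every Control library for Fgfr3 and for the sums of thalamus, neurons, oligodendrocyte precursors, endothelium and CA2. For astrocytes, microglia and mural cells they were not both above. The part of thalamic tissue in the Fgfr3 values was not tested.

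Fgfr1, the FGF receptor of hippocampal neurons and progenitors, had log2 values of 4.82, 4.69 and 4.60 in Control and 4.48, 4.55 and 4.39 in MA. The groups did not overlap, but the gap between the nearest libraries was small. The difference was -0.23 (SE 0.09, unadjusted p = 0.0425, limma adjusted p = 0.458). Fgfr2, known in oligodendrocytes and astrocytes, differed by 0.04 (95% interval -0.35 to 0.42), and Fgfrl1, a receptor-like protein without the kinase, by -0.21 (limma adjusted p = 0.559).

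**Figure D3:**
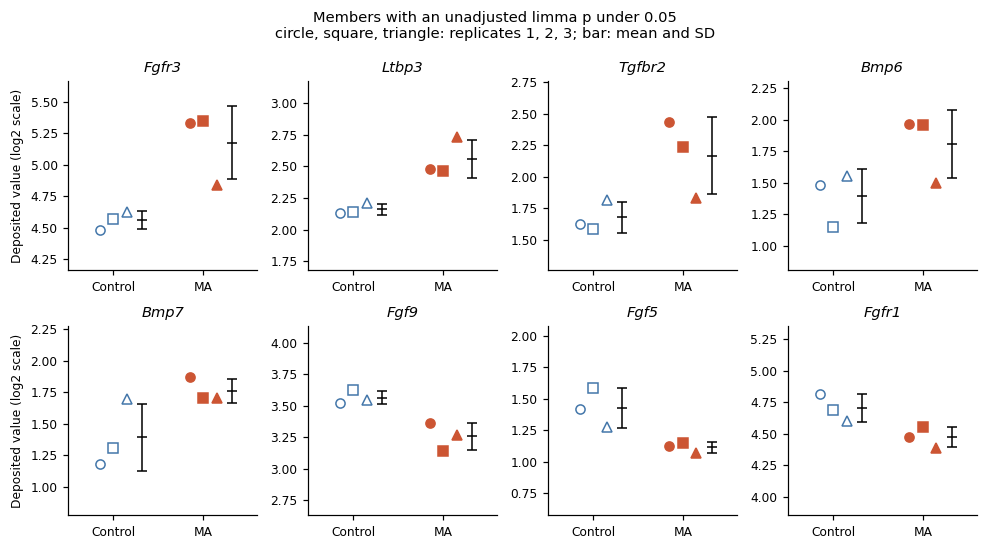
Deposited log2 value (y axis) of the 8 members with an unadjusted limma p under 0.05, with 1 symbol for each of the 3 Control and 3 MA libraries and bars for the mean and SD. MA replicate 3 (triangle) lies nearest to Control in Fgfr3, Tgfbr2 and Bmp6 and farthest in Ltbp3, Fgf5 and Fgfr1.

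All 3 TGF-beta ligands were tested and were higher by 0.03 to 0.20, with overlapping groups, and Tgfb1 turned sign under some alternatives. Tgfb2, the ligand with the highest level of the 3, had log2 values of 3.43, 3.17 and 3.11 in Control and 3.36, 3.66 and 3.29 in MA. The difference was 0.20 (SE 0.14, limma adjusted p = 0.670). Tgfb1, the form made by microglia, differed by 0.03 (95% interval -0.28 to 0.33), and Tgfb3 by 0.17 (limma adjusted p = 0.664).

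Of the activin and inhibin subunits, Inha had the highest level. This subunit makes inhibins, which oppose activins, and its log2 values were 3.50, 3.71 and 3.68 in Control and 3.68, 3.66 and 4.19 in MA. Only MA replicate 3 stood above the Control libraries, and the difference was 0.22 (SE 0.16, limma adjusted p = 0.693). Inhba, the activin A subunit, which neuronal activity induces, had values of 1.80, 1.29 and 1.26 in Control and 1.26, 1.22 and 0.417 in MA. MA replicate 3 was far below the rest, and the other MA libraries lay just under the nearest Control library. The difference was -0.48 (SE 0.26, limma adjusted p = 0.582), and it was -0.21 without MA replicate 3.

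The rows covered 6 BMP ligands, not the whole family, and 4 of them were tested. Bmp6, a ligand also known for the control of iron through hepcidin, had log2 values of 1.48, 1.15 and 1.55 in Control and 1.97, 1.96 and 1.5 in MA. MA replicates 1 and 2 were above Control, and MA replicate 3 was inside its range. The difference was 0.41 (SE 0.17, unadjusted p = 0.0463, limma adjusted p = 0.470). Bmp7, a ligand known in meninges and choroid plexus, had values of 1.18, 1.31 and 1.70 in Control and 1.87, 1.70 and 1.70 in MA. Control replicate 3 came very close to the MA libraries, and the difference was 0.36 (SE 0.15, unadjusted p = 0.0460, limma adjusted p = 0.470). The choroid plexus sum was 67.1, 175 and 422 in Control replicates 1, 2 and 3 and 1779, 2312 and 5085 in MA replicates 1, 2 and 3. Control replicate 3 was the highest Control library for both genes and for this sum. MA replicate 3 had the highest sum and was not the highest MA library for either gene. Most of the sum was Ttr, with 57.7 to 410 in Control and 1744 to 5033 in MA. Among the 8 markers, MA replicate 3 was the highest MA library for Ttr, Otx2, F5, Sostdc1 and Kcnj13. For Folr1, Clic6 and Kl it was MA replicate 2. The part of choroid plexus and meningeal tissue in the Bmp6 and Bmp7 values was not tested. Bmp2 and Bmp3 differed by 0.02 and -0.06.

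Of the GDF ligands, 4 of 8 were tested, and all 4 were lower, by 0.04 to 0.52 in size and none with an adjusted p under 0.05, and Gdf9 and Gdf11 turned sign under some alternatives. Gdf1, a ligand of the Nodal type, had log2 values of 4.90, 5.12 and 4.72 in Control and 3.70, 3.88 and 5.60 in MA. MA replicates 1 and 2 were below every Control library, and MA replicate 3 was above every one. The difference was -0.52 (SE 0.46, limma adjusted p = 0.751), and without MA replicate 3 it was -1.13 with a limma adjusted p of 0.0274, the range over all alternatives being 0.0274 to 0.943. All 1349 exonic bases of Gdf1 lie in exons of Cers1, a ceramide synthase gene on the same strand, or of Upf1, so the reads of Gdf1 are uncertain. Cers1 had values of 4.82, 4.51 and 4.79 in Control and 5.13, 5.12 and 4.38 in MA, so that MA replicate 3 was its lowest library. Gdf10, Gdf11 and Gdf9 differed by -0.22, -0.04 and -0.23.

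All 6 type I receptors were tested, and their differences lay between -0.25 and 0.05. Acvr1b, the activin receptor ALK4, had the highest level, with log2 values of 4.49, 4.52 and 4.70 in Control and 4.81, 4.72 and 4.32 in MA. MA held both the highest and the lowest library, and the difference was 0.05 (SE 0.14, limma adjusted p = 0.943). For all 6, Acvr1, Acvr1b, Acvr1c, Bmpr1a, Bmpr1b and Tgfbr1, MA replicate 3 was the lowest of the 6 libraries. A further type I receptor, Acvrl1, which the symbol rule does not take in, had 2.59, 2.80 and 2.97 in Control and 2.71, 2.75 and 2.64 in MA, where Control replicate 1 was the lowest. Over the members, MA replicate 3 was the lowest of the 6 libraries for 19 of 53, beside 3973 of 13321 tested genes (29.8%). It was the highest or lowest for 26 (49.1%), beside 55.6%.

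Of the type II receptors and the co-receptor Tgfbr3, all 5 were tested. Tgfbr2, the kinase that binds TGF-beta first and is known in endothelium and microglia, had log2 values of 1.63, 1.59 and 1.82 in Control and 2.43, 2.24 and 1.84 in MA. MA replicate 3 lay almost level with Control replicate 3. The difference was 0.49 (SE 0.17, unadjusted p = 0.0200, limma adjusted p = 0.371), with a ratio of mean back-transformed levels of 1.61. The adjusted p was 0.0337 with the weights and 0.0511 without MA replicate 3, within a range of 0.0337 to 0.790 over all alternatives. The gene lies at chr9:116084293-116175360 on GRCm38. The summed level of 4 endothelial markers was 88.3, 76.8 and 62.5 in MA replicates 1, 2 and 3 and 53.2 to 58.2 in Control, and that of 4 microglial markers was 57.4, 53.2 and 47.5 against 54.4 to 56.9. Both sums had the order of Tgfbr2 within MA, as did those of astrocytes, oligodendrocyte precursors and mural cells. This order is therefore not particular to endothelium or microglia. All 4 endothelial markers were higher on average in MA, whereas 3 of the 4 microglial markers were lower. The part of endothelial or microglial RNA in the Tgfbr2 values was not tested.

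Tgfbr3, or betaglycan, which presents TGF-beta to its receptors, had values of 1.48, 1.46 and 1.44 in Control and 1.66, 1.86 and 1.54 in MA, without overlap, and a difference of 0.23 (limma adjusted p = 0.563). Bmpr2, the BMP type II receptor and the one with the highest level, had 3.41, 3.35 and 3.48 against 3.46, 3.38 and 3.0, a difference of -0.13 (SE 0.14, limma adjusted p = 0.792). Acvr2a and Acvr2b, the activin type II receptors, differed by -0.07 and 0.06, and MA replicate 3 was the lowest library for both and for Bmpr2.

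Of the 5 receptor Smads, 1 was higher and 4 lower. Smad3, which carries TGF-beta and activin signals, had the highest level, with log2 values of 3.57, 3.66 and 3.73 in Control and 3.60, 3.55 and 3.52 in MA. The groups overlapped, with a difference of -0.09 (SE 0.09, limma adjusted p = 0.764). Smad5, which carries BMP signals, had values of 2.43, 2.35 and 2.44 in Control and 2.28, 2.28 and 2.03 in MA, and the groups did not overlap (difference -0.21, limma adjusted p = 0.573). Smad1 and Smad9, of the same BMP branch, differed by -0.11 and -0.00027, and Smad2, of the TGF-beta branch, by 0.12.

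Smad4, the common partner of the receptor Smads, had log2 values of 3.69, 3.06 and 3.17 in Control and 3.54, 3.54 and 3.08 in MA. The spread within each group exceeded the difference of 0.08 (SE 0.20, limma adjusted p = 0.931). The inhibitor Smad7 differed by -0.04 (95% interval -0.27 to 0.19), and Smad6, the inhibitor of the BMP branch, by -0.23, with Control replicate 3 alone at 1.72 and the other libraries at 0.794 to 1.06.

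Of the latent TGF-beta binding proteins and the procollagen protease Bmp1, 4 of 6 rows were tested. Ltbp3, which holds latent TGF-beta, had log2 values of 2.13, 2.14 and 2.21 in Control and 2.48, 2.47 and 2.73 in MA. The Control libraries were tightly grouped, every MA library was above them, and MA replicate 3 was the highest. The difference was 0.40 (SE 0.11, unadjusted p = 0.00734, limma adjusted p = 0.277), with a 95% interval from 0.14 to 0.66. Ltbp4, the binding protein with the highest level, had 4.39, 4.21 and 3.84 against 3.85, 4.11 and 4.65, a difference of 0.05 (SE 0.22, limma adjusted p = 0.957). Bmp1 had 4.02, 3.71 and 3.62 against 3.35, 3.64 and 4.39. For Ltbp3, Ltbp4 and Bmp1, MA replicate 3 was the highest of the 6 libraries.

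The position of MA replicate 3 moved with base composition. Across the 53 members, its value minus the mean of MA replicates 1 and 2 had a Pearson correlation of 0.474 and a Spearman correlation of 0.382 with the GC content of the longest transcript. Genes share libraries and are not independent, so this is a description. Of the 29 members with a GC content of at least 50%, 12 were higher in MA replicate 3, with a median difference of -0.08. Of the 24 below 50%, 2 were higher, with a median of -0.28. Over 13302 tested genes the Pearson correlation was 0.248 and the Spearman correlation 0.273. Of the 6698 with a GC content of at least 50%, 4007 were higher in MA replicate 3, with a median of 0.08. Of the 6604 below 50%, 2559 were higher, with a median of -0.09. The members thus had lower medians than all tested genes on both sides of 50%.

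**Figure D4:**
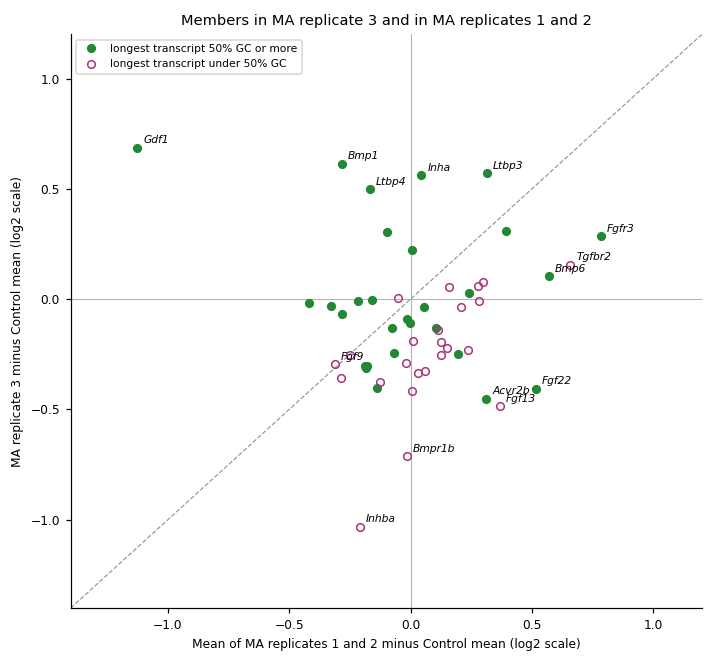
MA replicate 3 minus the Control mean (y axis, log2 scale), 1 point per tested member. The x axis is the mean of MA replicates 1 and 2 minus the Control mean (log2 scale). Gdf1 lies at the upper left, apart from the others, and Fgfr3 and Tgfbr2 lie to the right, on the positive side of both axes.

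The 13 rows below the filter were Bmp5, Bmp15, Fgf3, Fgf7, Fgf17, Fgf23, Fgfr4, Gdf5, Gdf6, Gdf7, Gdf15, Ltbp2 and the second row of Ltbp4. Their log2 values stayed between 0 and 0.544, the highest being Bmp5 in MA replicate 2. For Fgf23, the hormone of phosphate balance, the values were 0.0908, 0.0728 and 0.0397 in Control and 0.203, 0.178 and 0.113 in MA, without overlap but close to 0.

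Genes that work with the members, from a list of co-receptors, antagonists, activators, regulators and targets, were also examined: 66 rows, of which 61 were tested. At an adjusted p under 0.05 in limma, 1 was higher and 0 were lower, beside 0.263% of all tested genes. At an unadjusted p under 0.05, 6 were higher and 7 lower (21.3%, beside 10.4% of all tested genes). The list was written with earlier results of these data known. Nothing about these genes as a group is therefore read from the shares given here or by class below. The median difference was 0.0017. The 1 that rose was Kl, encoding Klotho, the co-receptor of FGF23. Its log2 values were 1.93, 1.89 and 1.86 in Control and 3.02, 3.70 and 3.26 in MA, far apart in the groups. The difference was 1.43 (SE 0.17, limma adjusted p = 0.0325), and the adjusted p was 0.0979 with the replicate numbers as a block and 0.00557 to 0.152 over all alternatives. Its relative Klb was below the filter.

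Of 15 tested antagonists of BMPs and activins, 2 passed the unadjusted threshold upward and 1 downward (20% in all, beside 10.4% of all tested genes). Sostdc1, a secreted BMP antagonist, had log2 values of 1.30, 1.51 and 1.32 in Control and 2.34, 2.74 and 3.11 in MA, a difference of 1.35 (SE 0.19, limma adjusted p = 0.0570). Kl and Sostdc1 are both also in the list of 8 choroid plexus markers, all of which were higher in every MA library than in every Control library. The part of choroid plexus in their values was not tested. Grem1, another BMP antagonist, had 1.38, 1.30 and 1.12 against 0.693, 0.884 and 0.713, a difference of -0.50 (limma adjusted p = 0.220). Fstl1, a follistatin-related protein, was higher by 0.38 (limma adjusted p = 0.417). Nog, or noggin, was lower in every MA library, with a difference of -0.16 (limma adjusted p = 0.618).

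Of 6 tested activators of latent TGF-beta, 3 (50%, beside 10.4%) passed the unadjusted threshold, Nrros higher and Itgav and Lrrc32 lower. Itgav encodes the integrin alpha v chain, which helps to release TGF-beta, and had log2 values of 3.89, 3.99 and 3.85 in Control and 3.31, 3.35 and 3.22 in MA. The groups were clearly apart, with a difference of -0.62 (SE 0.09, limma adjusted p = 0.0570). Nrros and Lrrc32, which anchor latent TGF-beta on cells, differed by 0.50 and -0.34 (limma adjusted p = 0.322 and 0.417).

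In a class of adaptors, Smad regulators and inhibitors of FGF or ERK signalling, 3 of 16 (18.8%, beside 10.4% of all tested genes) passed the unadjusted threshold, all lower. They were Dusp6, Spry2 and Spry4, all from the inhibitors. No adaptor or Smad regulator passed it, and Smurf1, Smurf2, Ski and Skil differed by -0.03, -0.03, -0.12 and -0.07. Dusp6, a phosphatase of ERK, had log2 values of 4.58, 4.22 and 4.07 in Control and 3.56, 3.65 and 3.41 in MA, a difference of -0.75 (SE 0.14, limma adjusted p = 0.138). Spry2, a feedback inhibitor of receptor tyrosine kinase signalling, had 4.34, 4.18 and 4.15 against 3.66, 3.64 and 3.85, a difference of -0.51 (SE 0.10, limma adjusted p = 0.147). Spry4 differed by -0.44 (limma adjusted p = 0.236), and Spry1 by 0.02 with overlapping groups. Il17rd, which also restrains FGF signalling, differed by 0.0017 (limma adjusted p = 0.998).

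Of 13 tested target genes, 3 (23.1%, beside 10.4%) passed the unadjusted threshold, Etv4 and Msx1 higher and Etv5 lower. Etv5, an ETS factor induced by FGF, had log2 values of 4.40, 4.57 and 4.49 in Control and 4.18, 3.83 and 3.74 in MA, a difference of -0.57 (SE 0.13, limma adjusted p = 0.204). Its relative Etv4 was 0.36 higher (limma adjusted p = 0.452), and Etv1 overlapped between the groups. Msx1, a BMP target also known in choroid plexus, had 1.85, 1.94 and 2.23 against 2.57, 2.76 and 2.95, a difference of 0.75 (SE 0.15, limma adjusted p = 0.144). The BMP targets Id1, Id2, Id3 and Id4 differed by -0.22, 0.35, 0.01 and -0.11, with adjusted p-values of 0.517 or more in limma.

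**Figure D5:**
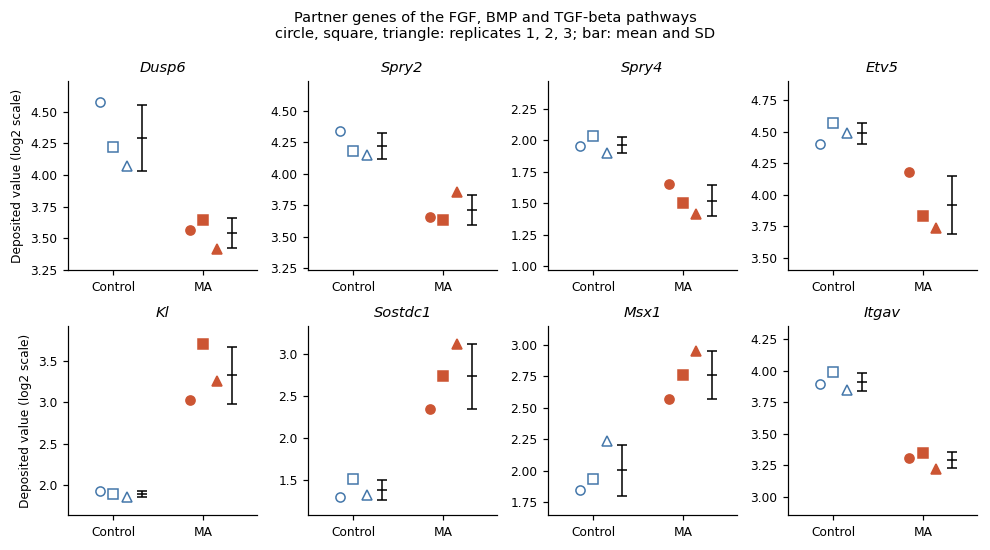
Deposited log2 value (y axis) of 8 genes that work with the members, with 1 symbol for each of the 3 Control and 3 MA libraries and bars for the mean and SD. Kl and Sostdc1 are higher and Dusp6, Spry2, Etv5 and Itgav are lower in every MA library than in every Control library.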

How the data were processed

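The authors deposited 1 table of log2 values named as RPKM, without read totals. Their methods name Hisat2, featureCounts and FPKM, whereas the submitters' processing notes list Bowtie 0.12.2 with mm8 and mm9. The log2 scale and an offset of 1 were inferred from the values. Sorted, the values differed by at most 0.0285 between libraries above the median rank. Above that rank their distributions were thus nearly equal as deposited, and further scaling could change little there. The gap was not computed below it, where MA replicate 3 alone listed no gene at 0. Median centring and quantile normalization each called 35 genes, as many as the main fit. No source says that same-numbered mice were paired. A pseudocount of 0.1 had been planned for linear values and became an alternative. The 13321 genes that reached 0.5 on the back-transformed scale in 3 or more libraries were tested with limma 3.58.1 in R 4.3.3. The fit used eBayes with trend, no covariate and Benjamini-Hochberg adjustment. It was tried on simulated data with equal spread in all libraries and shifts larger than any member difference in the main fit. No simulated library stood apart, so that trial cannot show how the fit performs on these data. Members and lists were chosen with earlier results of these data known. A gene that the symbols would take in is not reported here. Members with an unadjusted p under 0.05 or the highest mean level of their role were named in full, as were partners with an unadjusted p under 0.05. Others, such as Inhba, Nog and Fgf23, were named after their values were seen. Loci and overlaps come from GENCODE M21 on GRCm38, matched by identifier for 65 of 66 rows. The authors' build is not certain, so these give location only. Alternatives changed the offset, filter, scaling, trend, weights, block and libraries. Other value columns numbered 0.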

Additional observations from a re-analysis of the deposited data

How the results depend on the processing

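With 3 mice in each group, unknown depth and a library that stands apart, small differences cannot be resolved, and leaving out a library changes the count of calls. Members called (0) became 4 with sample quality weights and 0 to 2 when a library was left out, 2 being without MA replicate 3. All genes called (35) became 3 with no filter, 20 with a minimum mean of 5, 586 with weights, 15 with the replicate block, 23 with a GC and length correction, 8 with that correction and the replicate block, and 0 to 257 when a library was left out, 257 being without MA replicate 3. Partners called (1, Kl) became 0 with no filter, 10 with weights, 0 with the replicate block, 0 with the correction and the block, and 0 to 4 when a library was left out. The GC and length corrections were chosen after seeing the data. For replicate numbers 1, 2 and 3, the deviations of the Control and the MA library correlated at -0.197, -0.242 and -0.337. With only 3 libraries in each group, these correlations cannot decide whether the mice were paired. The replicate block called 0 members. Under 1 or more alternatives, 24 of the 53 tested members turned sign, none of them called and none over 0.23 in size in the main fit. Of the 17 named in full these were Ltbp4 (-0.0776 with weights, -0.167 to 0.233 when a library was left out), Fgf13 (-0.0584 to 0.368), Smad4 (-0.0428 to 0.275), Acvr1b (-0.0486 to 0.194) and Bmpr2 (-0.227 to 0.0076), and 19 others did so. Of 284 pairs of a named member and a setting, 268 kept direction and side of the threshold, 6 newly passed it and 10 turned sign. The cause was not tested.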
